A study of Mus musculus with 9 samples.

Results

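The basement membrane genes described here are 34 mouse genes for laminin chains, type IV collagen chains, nidogens, proteoglycans and other proteins of the thin matrix sheet under epithelia. They were selected on their gene symbols, from general knowledge of what basement membranes contain and with earlier results of these same libraries in view. The rule itself uses no measured value. All 34 were found among the 54532 genes of the deposited table, and 28 of them had enough counts to enter the test, which covered 16772 genes. The 6 too low to test were Lamb3, Col4a3, Col4a4, Col4a6, Col15a1 and Papln.

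The RNA came from neural tube organoids grown clonally in Matrigel and N2B27 medium from R1 mouse embryonic stem cells, so every group rests on 1 parent line. All cells carried FoxA2-Venus, a fluorescent reporter of Foxa2, and were sorted by high (GFP+) or low (GFP-) signal. The medium was changed at Day 2 and the cells were sorted 66 h later. There were 3 groups with 3 biological replicates each: RA GFP- and RA GFP+, from medium with all-trans retinoic acid (RA), and SAG GFP+, from medium with SAG, an activator of the hedgehog transducer Smoothened. The RA dose is 250 nM in the series text and 250 µM in the treatment protocol, which was not settled, and the SAG dose is not given in the sources used here. Nor do those sources state whether the SAG medium also held RA. With no SAG GFP- group, medium and sort cannot be told apart between SAG GFP+ and RA GFP-.

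A basement membrane is assembled from a laminin network and a type IV collagen network, which nidogens, perlecan (Hspg2) and agrin (Agrn) tie together. A laminin is a trimer of an alpha, a beta and a gamma chain, and type IV collagen is a trimer of alpha chains, most widely of the Col4a1 and Col4a2 products. Integrins and dystroglycan (Dag1) hold cells to it, and in the neural tube it lies at the basal side of the neuroepithelium. Matrigel is itself a basement membrane extract, so the cells stood in laminin and collagen IV protein from outside, while the counts are of the cells' own RNA.

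Each library held between 25281871 and 29763765 counts. Levels are in CPM, which relate a gene's counts to the library's tested total times its TMM factor. Genes were tested with edgeR's quasi-likelihood test in 1 fit of all 9 libraries, and a gene is said to rise, fall or differ where the p-value adjusted by Benjamini-Hochberg over the 16772 genes is under 0.05. Foxa2, the gene of the sort, stood at 2.47, 1.33 and 2.51 CPM in RA GFP-, at 184, 157 and 133 CPM in RA GFP+ and at 326, 212 and 205 CPM in SAG GFP+ libraries. SAG GFP+ replicate 1 stood apart from its group: T, a mesoderm and notochord gene, was at 110 CPM there against 7.94 and 9.81 CPM, and 5 pluripotency genes summed to 220 CPM against 56.9 and 68.1 CPM. Counts of basement membrane genes are therefore also given without that library.

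Col4a1 and Col4a2 both rose steeply with the sort, as given below, and they are transcribed away from each other on chromosome 8, so the stretch between their starts is shown. RefSeq (GRCm38.p6) puts the Col4a2 start at 11312805 on the plus strand and the Col4a1 start at 11312826 on the minus strand, 21 bases apart, so both first exons hold the 22 bases chr8:11312805-11312826, given on the plus strand.
Col4a1 and Col4a2 shared start: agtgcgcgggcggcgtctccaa
Col4a5 and Col4a6 form a like pair on the X chromosome, with RefSeq starts 1343 bases apart.

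Frem1 had the largest rise of the 28 tested genes with the sort, and the 250 bases upstream of RefSeq starts were searched on both strands for letters that forkhead factors such as Foxa2 bind. RefSeq windows were found for 23 of the 34 genes (30 windows). TGTTTAC was in 3.17% of all 32851 windows and in 0 of the 30. TGTTTGC was in 4.3% of all windows and in 2 of the 30, both of Frem1, and these matches were singled out after they were seen. They are shown 5′ to 3′ on the minus strand, on which Frem1 lies, with the match in capitals; in the first it reads on the opposite strand.
Frem1 upstream start, chr4:83052248-83052274: cgggctccctGCAAACAgttgcaggca
Frem1 internal start, chr4:83021103-83021121: caaccttttcTGTTTGCag
The first match lies upstream of the RefSeq start but inside an exon of 2 annotated Frem1 transcripts that start further upstream. The second match ends 2 bases before an exon that 4 annotated transcripts contain, and 3 of these splice into it from an upstream exon, so these letters are also the end of an intron. Of 6 further motifs, TGTTTNC, which takes in both forkhead motifs, was in 4 of the 30 windows (17.8% of all) and the GC box GGGCGG was in 16 of the 30 (32.7% of all). The Gli motif GACCACCCA (0.225% of all windows), the AP-1 motif TGACTCA (4.46%), the GATA motif GATAAG (6.55%) and the retinoic acid receptor motif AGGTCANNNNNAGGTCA (0.00913%) were in 0 of the 30. Such a match is a run of letters and not a bound site.

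Within RA medium, most basement membrane genes were higher in the GFP+ cells. Of the 28 tested, 16 rose and 2 fell, while 8.49% of all tested genes rose and 8.43% fell. Their median log2 fold change was 1.11, against -0.018 over all tested genes. Summed over the 34 genes, RA GFP- libraries held 2909 to 3673 CPM and RA GFP+ libraries 6644 to 6994 CPM. In sorted bulk cells, fewer cells of a type and less RNA per cell cannot be told apart. The members that rose were Lama4, Lama5, Lamb1, Lamc1, Col4a1, Col4a2, Hspg2, Agrn, Col18a1, Npnt, Frem1, Frem2, Fras1, Smoc1, Smoc2 and Dag1, and those that fell were Tinagl1 and Ntn4.

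Between the GFP+ groups, most of these genes were lower under SAG. Of the 28, 19 fell and 1, Ntn4, rose, while 14.8% of all tested genes fell and 9.78% rose. The median log2 fold change was -1.19, against -0.017 over all tested genes, and the sum over the 34 genes was 3401 to 3700 CPM under SAG. This comparison shares the RA GFP+ libraries with the one above, so the values of both are set side by side below and no correlation between them is given.

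SAG GFP+ and RA GFP- libraries had similar sums and fewer called members. Of the 28, 6 were higher in SAG GFP+ and 4 were lower, while 12% of all tested genes were higher and 16.5% lower, and the median was 0.04 against -0.009. The 6 higher were Lama5, Col4a1, Col4a2, Frem1, Frem2 and Fras1, and the 4 lower were Lama3, Nid2, Tinagl1 and Smoc1. Without SAG GFP+ replicate 1 the counts were 16 higher and 2 lower with the sort, 1 higher and 20 lower between the GFP+ groups, and 6 higher and 5 lower between SAG GFP+ and RA GFP-.

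**Figure D1:**
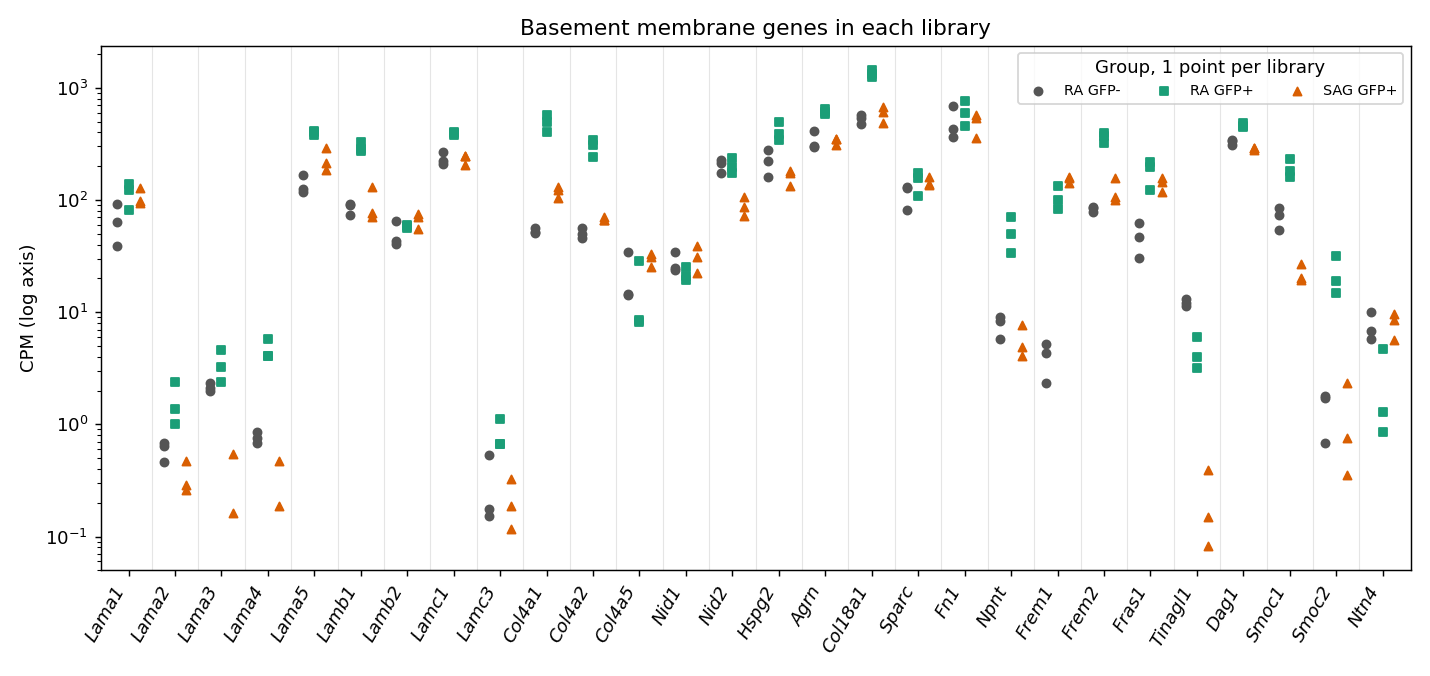
CPM on a log axis of the 28 tested basement membrane genes, 1 point per library and 3 libraries per group. The RA GFP+ values of Col18a1 (1260 to 1449) are above those of the other 6 libraries, and the Lama3 value of SAG GFP+ replicate 2 and the Lama4 value of SAG GFP+ replicate 1 are 0 and cannot be drawn.

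The laminin alpha chains set the tissue identity of a laminin, and Lama5 and Lama1 are the chains of early epithelia. Lama5 (ENSMUSG00000015647, chromosome 2, 180176373 to 180225859, minus strand of GRCm38) had values of 117, 126 and 168 CPM in RA GFP- libraries, of 409, 378 and 406 CPM in RA GFP+ and of 292, 185 and 215 CPM in SAG GFP+ libraries. No values overlapped between groups, and SAG GFP+ lay between the RA groups. Lama5 rose by 1.54 with the sort (SE 0.18, adjusted p = 0.000207) and was 0.79 lower under SAG than in RA GFP+ (log2 fold change -0.79, SE 0.18, adjusted p = 0.00749). Lama1 stood at 38.7, 64.1 and 91.6 CPM in RA GFP-, at 81.7, 124 and 138 CPM in RA GFP+ and at 129, 94.8 and 98.1 CPM in SAG GFP+ libraries. Within each replicate number the RA GFP+ library was higher than the RA GFP- library, but replicate 1 of RA GFP+ lay below replicate 3 of RA GFP-. Lama1 did not pass the test with the sort (log2 fold change 0.82, SE 0.28, adjusted p = 0.0674). It passed with the replicate number as a block (0.87, adjusted p = 0.000177 in the 6 RA libraries), with DESeq2 (adjusted p = 0.0236) and with no low-count filter (adjusted p = 9.05e-05). It also passed when RA GFP- replicate 3 was left out (1.16, adjusted p = 0.0175) and when RA GFP+ replicate 1 was (1.02, adjusted p = 0.0409). The highest adjusted p over the alternatives was 0.187. Between the GFP+ groups the Lama1 difference was -0.09 (SE 0.28, adjusted p = 0.839). Against RA GFP-, SAG GFP+ was 0.73 higher without overlap, which missed the threshold (SE 0.28, adjusted p = 0.0724). Over the alternatives the adjusted p of this difference ran from 0.000401 to 0.181.

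The other 3 alpha chains were low. Lama4, a chain of vessel and mesenchymal basement membranes, stood at 0.847, 0.762 and 0.685 CPM in RA GFP-, at 5.76, 4.07 and 4.05 CPM in RA GFP+ and at 0, 0.187 and 0.467 CPM in SAG GFP+ libraries. It rose by 2.59 with the sort (SE 0.57, adjusted p = 0.00934) and was lower under SAG by far more than the spread (-4.37, SE 0.66, adjusted p = 0.000622). Lama3, an epithelial chain, stood at 1.98, 2.32 and 2.13 CPM, 4.63, 3.23 and 2.37 CPM, and 0.163, 0 and 0.545 CPM in the 3 groups in that order. Its RA groups did not differ beyond their spread in the test (0.67, SE 0.58, adjusted p = 0.495), and it was lower in SAG GFP+ than in RA GFP+ (-3.83, SE 0.71, adjusted p = 0.00235). Lama2, the chain of muscle and nerve, stood at 0.635, 0.686 and 0.457 CPM, 1.37, 2.39 and 1.01 CPM, and 0.285, 0.262 and 0.467 CPM. Lama2 fell between the GFP+ groups (-2.22, SE 0.49, adjusted p = 0.00656). With the sort it missed the threshold (1.42, SE 0.46, adjusted p = 0.0572) and passed with the replicate block in the 6 RA libraries (1.36, adjusted p = 0.0268). These 3 genes had 17 to 384 counts per group, so their values are less precise than those of Lama1 and Lama5.

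Of the beta chains, Lamb1 moved and Lamb2 did not pass any of the 3 comparisons. Lamb1 (ENSMUSG00000002900, chromosome 12, 31265234 to 31329644, plus strand) stood at 90.6, 93 and 73.5 CPM in RA GFP-, at 274, 330 and 282 CPM in RA GFP+ and at 131, 70 and 76 CPM in SAG GFP+ libraries. The RA GFP+ libraries were all above the other 6, and SAG GFP+ replicate 1 was the highest of those 6. Lamb1 rose 3.44-fold with the sort (log2 fold change 1.78, SE 0.22, adjusted p = 0.000253) and was 3.2-fold lower under SAG than in RA GFP+ (-1.68, SE 0.21, adjusted p = 0.000212). Lamb2 ranged from 40.2 to 75.8 CPM over all 9 libraries, and its difference was 0.24 with the sort (SE 0.19) and 0.20 between the GFP+ groups (SE 0.19). Against RA GFP- the Lamb2 difference of 0.45 in SAG GFP+ (SE 0.19, adjusted p = 0.0939) passed with RA GFP- replicate 3 left out (adjusted p = 0.00813) or SAG GFP+ replicate 1 left out (adjusted p = 0.0314). Lamb3, too low to test, had 14, 28 and 18 counts in the 3 groups.

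Lamc1, the gamma chain of most laminins, stood at 209, 222 and 267 CPM in RA GFP-, at 377, 402 and 394 CPM in RA GFP+ and at 249, 206 and 248 CPM in SAG GFP+ libraries. SAG GFP+ libraries lay within the range of RA GFP- or just below it. Lamc1 rose with the sort (0.75, SE 0.12, adjusted p = 0.00174), was lower under SAG than in RA GFP+ (-0.74, SE 0.12, adjusted p = 0.00125) and differed by 0.01 between SAG GFP+ and RA GFP- (SE 0.12). The rarer gamma chain gene Lamc3 had 0.152 to 0.533 CPM in RA GFP-, 0.663 to 1.11 CPM in RA GFP+ and 0.117 to 0.326 CPM in SAG GFP+ libraries. It fell between the GFP+ groups (-1.94, SE 0.63, adjusted p = 0.0419), a call that ended when RA GFP+ replicate 1, 2 or 3, SAG GFP+ replicate 2 or 3, or RA GFP- replicate 2 was left out (adjusted p = 0.0522 to 0.169).

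Among type IV collagens, Col4a1 and Col4a2 rose strongly with the sort. Col4a1 (ENSMUSG00000031502, chromosome 8, 11198423 to 11312826, minus strand) stood at 51.1, 52.3 and 56.4 CPM in RA GFP-, at 406, 497 and 573 CPM in RA GFP+ and at 131, 104 and 123 CPM in SAG GFP+ libraries. Its groups did not overlap, with SAG GFP+ in between. It rose 9.23-fold with the sort (log2 fold change 3.21, SE 0.15, adjusted p = 8.39e-07), was 4.12-fold lower in SAG GFP+ than in RA GFP+ (-2.04, SE 0.14, adjusted p = 4.48e-06) and was 2.24-fold higher in SAG GFP+ than in RA GFP- (1.17, SE 0.14, adjusted p = 0.000125). Col4a2 (ENSMUSG00000031503, chromosome 8, 11312805 to 11449287, plus strand) stood at 46.3, 49.7 and 55.9 CPM, 243, 307 and 343 CPM, and 66.3, 67 and 70.6 CPM in the same order. It rose 5.88-fold with the sort (2.56, SE 0.14, adjusted p = 2.71e-06) and was 4.38-fold lower under SAG than in RA GFP+ (-2.13, SE 0.14, adjusted p = 3.36e-06). The Col4a2 groups did not overlap either, but SAG GFP+ lay close above RA GFP- (0.43, SE 0.14, adjusted p = 0.0371), and that call ended when any 1 of RA GFP- replicates 1 and 2, RA GFP+ replicate 2 and SAG GFP+ replicates 2 and 3 was left out (adjusted p = 0.0587 to 0.0958).

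Col4a5, a chain of the kidney and smooth muscle networks, did not follow them. It stood at 14.1, 14.6 and 34.2 CPM in RA GFP-, at 8.43, 8.1 and 28.3 CPM in RA GFP+ and at 25.3, 33.1 and 30.8 CPM in SAG GFP+ libraries. Replicate 3 was the highest in both RA groups. With the sort the log2 fold change was -0.49 (SE 0.47, adjusted p = 0.541), and it was -0.61 (adjusted p = 0.0124) with the replicate block in the 6 RA libraries and -1.34 (adjusted p = 0.0308) without RA GFP+ replicate 3. Between the GFP+ groups it was 0.99 (SE 0.47, adjusted p = 0.149), and 1.85 (adjusted p = 0.00479) without RA GFP+ replicate 3. This difference also passed with no low-count filter (0.99, adjusted p = 0.00183). With the replicate block it was 1.25 (adjusted p = 0.0291) in the 6 GFP+ libraries and 1.26 (adjusted p = 0.00887) in all 9. The highest adjusted p over the alternatives was 0.385. Col4a3, Col4a4 and Col4a6 had 0 to 31 counts per group, and Col4a3 had 0 counts in SAG GFP+ libraries, which allows up to 0.039 CPM, counting error only.

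The linkers between the networks split. Nidogen-2 (Nid2) stood at 213, 174 and 229 CPM in RA GFP-, at 198, 239 and 173 CPM in RA GFP+ and at 106, 72.5 and 87.2 CPM in SAG GFP+ libraries. The RA groups overlapped (-0.02, SE 0.17, adjusted p = 0.967), and all SAG GFP+ libraries were below all RA libraries (-1.20 against RA GFP+, SE 0.17, adjusted p = 0.000442, and -1.21 against RA GFP-, SE 0.17, adjusted p = 0.000357). Nid2 shares 8.45% of its exon bases with Rtraf on the opposite strand, and whether the counting used strand is not given in the sources used here. Nid1 ranged from 19.3 to 38.6 CPM over the 9 libraries and passed none of the 3 comparisons. Between the GFP+ groups its difference was 0.49 (SE 0.22, adjusted p = 0.131), and 0.69 (adjusted p = 0.0496) with SAG GFP+ replicate 2 left out.

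The 3 abundant heparan sulfate proteoglycans of basement membranes all rose with the sort and were all lower under SAG. Col18a1 (ENSMUSG00000001435, chromosome 10, 77052178 to 77166548, minus strand), the source of endostatin, stood at 576, 477 and 541 CPM in RA GFP-, at 1449, 1322 and 1260 CPM in RA GFP+ and at 670, 612 and 483 CPM in SAG GFP+ libraries. SAG GFP+ and RA GFP- overlapped, and RA GFP+ stood well above both (1.34 with the sort, SE 0.14, adjusted p = 8.75e-05, and -1.19 between the GFP+ groups, SE 0.14, adjusted p = 0.000109). Agrn, best known from the neuromuscular synapse, stood at 295, 306 and 413 CPM, 648, 590 and 603 CPM, and 349, 348 and 307 CPM. It rose by 0.86 (SE 0.14, adjusted p = 0.00138) with the sort, and its log2 fold change between the GFP+ groups was -0.88 (SE 0.14, adjusted p = 0.00078). Hspg2 stood at 161, 223 and 281 CPM, 345, 387 and 498 CPM, and 180, 134 and 175 CPM. The corresponding Hspg2 changes were 0.89 (SE 0.20, adjusted p = 0.0111) and -1.33 (SE 0.21, adjusted p = 0.000742). Col15a1, a relative of Col18a1, had 18 to 26 counts per group and was not tested.

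The Fraser complex, Fras1, Frem1 and Frem2, anchors embryonic epithelia to the matrix, and nephronectin (Npnt) is a ligand of integrin alpha 8. All 4 rose with the sort, and they parted under SAG. Frem1 (ENSMUSG00000059049, chromosome 4, 82897920 to 83052339, minus strand) stood at 2.33, 4.34 and 5.18 CPM in RA GFP-, at 133, 101 and 82.4 CPM in RA GFP+ and at 142, 161 and 157 CPM in SAG GFP+ libraries. Both GFP+ groups were far above RA GFP-, 26.7-fold under RA (log2 fold change 4.74, SE 0.28, adjusted p = 3.47e-06) and 38.8-fold under SAG (5.28, SE 0.28, adjusted p = 4.18e-07). Between the GFP+ groups the difference of 0.54 missed the threshold (SE 0.23, adjusted p = 0.112), with adjusted p = 0.0115 to 0.295 over the alternatives and 0.0315 when RA GFP- replicate 1 was left out. Fras1 likewise stayed high under SAG, with 30.1, 46.6 and 62.2 CPM in RA GFP-, 123, 198 and 220 CPM in RA GFP+ and 158, 119 and 144 CPM in SAG GFP+ libraries. It rose by 1.96 with the sort (SE 0.27, adjusted p = 0.000548), was 3.03-fold higher in SAG GFP+ than in RA GFP- (adjusted p = 0.000998) and differed by -0.36 between the GFP+ groups (SE 0.26, adjusted p = 0.342).

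Frem2 stood at 78.8, 85.1 and 86.4 CPM in RA GFP-, at 397, 372 and 325 CPM in RA GFP+ and at 157, 99.9 and 106 CPM in SAG GFP+ libraries. It rose by 2.13 with the sort (SE 0.17, adjusted p = 1.81e-05) and was lower under SAG than in RA GFP+ (-1.59, SE 0.17, adjusted p = 5.72e-05). SAG GFP+ lay above RA GFP- by 0.54 (SE 0.16, adjusted p = 0.03), a difference that was 0.33 (adjusted p = 0.0569) without SAG GFP+ replicate 1 and also missed the threshold without RA GFP- replicate 1, 2 or 3 (adjusted p = 0.0501 to 0.0718). Npnt stood at 5.82, 9.03 and 8.41 CPM, 34, 49.3 and 69.9 CPM, and 4.89, 4.05 and 7.67 CPM in the 3 groups. It rose 6.59-fold with the sort (2.72, SE 0.31, adjusted p = 0.000174) and was 9.23-fold lower under SAG (-3.21, SE 0.32, adjusted p = 3.92e-05), where it overlapped RA GFP-.

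Of the SPARC family, which binds collagen and calcium, the 2 SMOC genes moved and Sparc did not pass the main test. Smoc1 stood at 84.3, 73.8 and 53.6 CPM in RA GFP-, at 180, 234 and 159 CPM in RA GFP+ and at 26.8, 20 and 19.5 CPM in SAG GFP+ libraries. Smoc1 in SAG GFP+ was below both RA groups (1.43 with the sort, SE 0.20, adjusted p = 0.000644; -3.11 between the GFP+ groups, SE 0.22, adjusted p = 3.78e-06; -1.68 against RA GFP-, SE 0.21, adjusted p = 0.000128). Smoc2 stood at 1.73, 1.79 and 0.685 CPM, 31.6, 18.9 and 14.8 CPM, and 2.32, 0.749 and 0.35 CPM. It rose 15.5-fold with the sort (3.95, SE 0.59, adjusted p = 0.000912) and was 19.1-fold lower under SAG than in RA GFP+ (-4.26, SE 0.60, adjusted p = 0.000399). Sparc itself stood at 128, 131 and 82.1 CPM, 157, 175 and 108 CPM, and 136, 140 and 161 CPM. Its replicate 3 was the lowest in both RA groups, and the difference with the sort was 0.37 (SE 0.20, adjusted p = 0.255), or 0.37 with adjusted p = 0.00814 when the replicate number was a block in the 6 RA libraries.

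Fibronectin (Fn1), a matrix protein of mesenchyme and early embryos, was abundant in all groups and did not differ beyond its spread. It stood at 366, 429 and 693 CPM in RA GFP-, at 597, 456 and 768 CPM in RA GFP+ and at 360, 534 and 575 CPM in SAG GFP+ libraries (0.29 with the sort, SE 0.26, adjusted p = 0.504, and -0.31 between the GFP+ groups, SE 0.26, adjusted p = 0.419). Dag1, the laminin and agrin receptor, stood at 312, 338 and 344 CPM, 458, 482 and 449 CPM, and 290, 293 and 278 CPM. Its changes were small and its replicates close (0.48 with the sort, SE 0.10, adjusted p = 0.00537, and -0.69 between the GFP+ groups, SE 0.10, adjusted p = 0.000397).

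The 2 genes that fell with the sort went different ways under SAG. Tinagl1, a secreted relative of cathepsin B, stood at 13.1, 11.4 and 12.1 CPM in RA GFP-, at 3.17, 3.97 and 5.96 CPM in RA GFP+ and at 0.0815, 0.15 and 0.389 CPM in SAG GFP+ libraries. It fell by 1.48 with the sort (SE 0.35, adjusted p = 0.0119), which missed the threshold without RA GFP+ replicate 1 (adjusted p = 0.0535) or 2 (adjusted p = 0.057), and it was 20.6-fold lower under SAG than in RA GFP+ (-4.37, SE 0.45, adjusted p = 5.23e-05). Netrin-4 (Ntn4), which binds the laminin gamma 1 chain, stood at 5.82, 6.78 and 10 CPM, 0.862, 1.28 and 4.67 CPM, and 5.62, 9.55 and 8.49 CPM. Ntn4 was lower in RA GFP+ than in RA GFP- (-1.72, SE 0.52, adjusted p = 0.043) and higher in SAG GFP+ than in RA GFP+ (1.79, SE 0.53, adjusted p = 0.0279). Both rest on few libraries: the first ended when any 1 was left out of RA GFP- replicates 1 to 3, RA GFP+ replicates 1 and 2 and SAG GFP+ replicates 2 and 3 (adjusted p = 0.0565 to 0.159), and the second when any 1 was left out of RA GFP+ replicates 1 and 2 and SAG GFP+ replicates 2 and 3 (adjusted p = 0.0679 to 0.108). Without RA GFP+ replicate 3 the values were -2.80 (adjusted p = 0.00104) and 2.87 (adjusted p = 0.000525). Papln, a papilin gene, had 16 to 39 counts per group and was not tested.

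**Figure D2:**
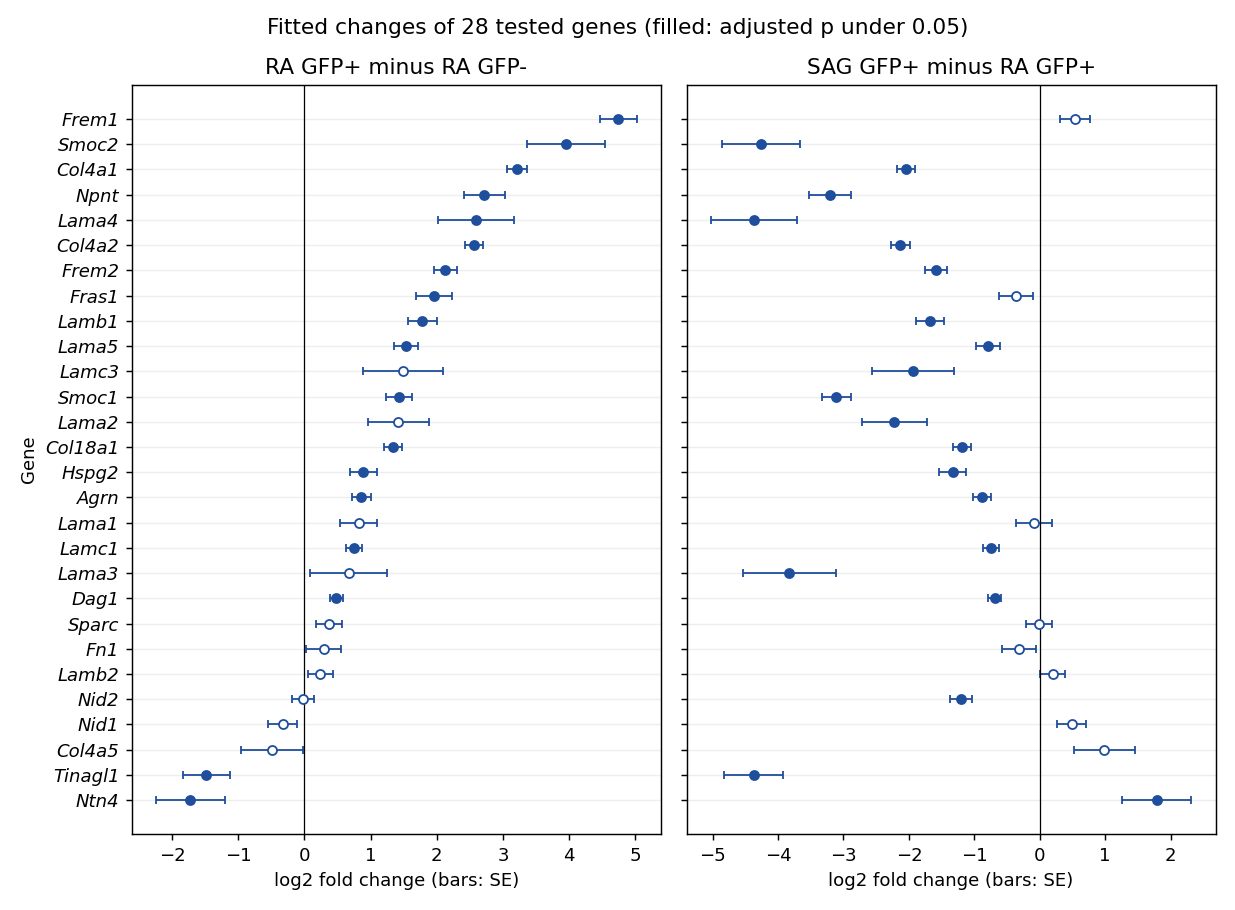
Log2 fold change of each tested gene with its SE, for RA GFP+ minus RA GFP- (left) and SAG GFP+ minus RA GFP+ (right), filled where the adjusted p is under 0.05. On the left 16 genes rise and 2 fall. On the right 19 fall and Ntn4 rises, while Frem1, Fras1, Lama1, Lamb2, Col4a5, Nid1, Sparc and Fn1 are open.

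Levels of different genes were compared only per length, as CPM per kilobase of annotated exon. Col18a1 had the highest mean in all 3 groups, and Dag1 the next highest. The Dag1 libraries overlapped those of Fn1 in RA GFP- and SAG GFP+ and those of Col4a1 in RA GFP+. Col18a1 reached 75.7 ± 7.19 (SD, n = 3) in RA GFP-, 191 ± 13.7 in RA GFP+ and 83.8 ± 13.6 CPM per kilobase in SAG GFP+. Col4a1 ranked 4 in RA GFP+ (65.9 ± 11.2) and did not differ beyond the spread from Agrn (66.1 ± 3.32), while in RA GFP- it stood at 7.14 ± 0.372, beside Col4a2 (7.65 ± 0.738) and Lamb2 (8.12 ± 2.25). Lamc1, at 28.1 ± 3.7, 47.3 ± 1.53 and 28.3 ± 3.0 CPM per kilobase, was the highest laminin gene in every group. With the length of the longest transcript in place of all exon bases, 26 of the 48 places of laminin and collagen IV genes in the 3 orders stayed the same, so the places of close neighbours depend on the length used. The other genes were ranked with exon bases alone.

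**Figure D3:**
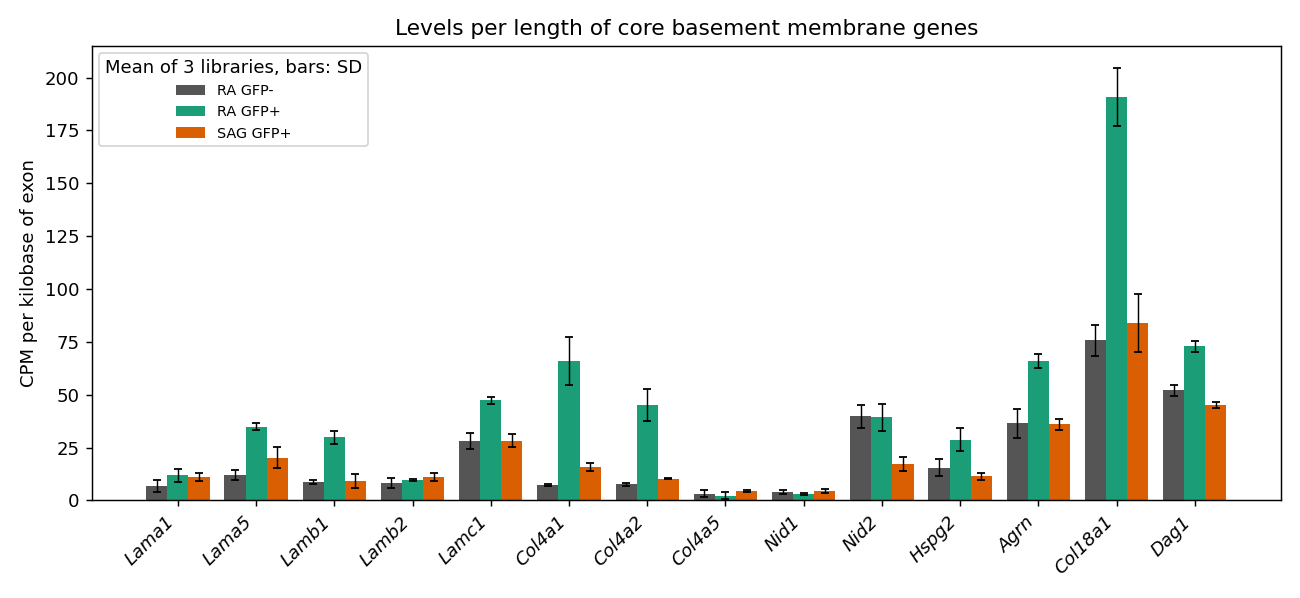
Mean CPM per kilobase of exon in each group for 14 core genes, with the SD of 3 libraries as bars. Col18a1 is the tallest in each group (191 in RA GFP+), and Col4a1 and Col4a2 stand at 7.14 and 7.65 in RA GFP- and at 65.9 and 45 in RA GFP+.

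The make-up of the laminin and collagen IV transcripts also differed between groups, given here as a description. Lama5 made up 70.6, 61.4 and 60.2% of the alpha chain transcripts per kilobase in RA GFP-, 79.2, 71 and 70.5% in RA GFP+ and 65.7, 62.3 and 64.8% in SAG GFP+ libraries, and most of the rest was Lama1. Between the RA groups this share overlapped by a small margin, and within each replicate number it was higher in RA GFP+. Lamb1 made up 58, 57 and 40.9% of the beta chain transcripts in RA GFP-, 74.7, 77.5 and 74.2% in RA GFP+ and 59.2, 37.6 and 38% in SAG GFP+ libraries, so its RA GFP+ share lay above all other libraries. With the length of the longest transcript these shares were 68.6, 67.8 and 52.3%, 82.3, 84.5 and 82%, and 69.7, 48.9 and 49.2%. RA GFP+ was again above all others, but whether Lamb1 held the larger share in RA GFP- replicate 3 depends on the length. The sum of alpha chain transcripts was 0.669 ± 0.0903 of Lamc1 in RA GFP-, 1.01 ± 0.051 in RA GFP+ and 1.11 ± 0.17 in SAG GFP+ (SD, n = 3).

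Col4a1 and Col4a2 encode the chains of the common collagen IV trimer. The ratio of Col4a1 to Col4a2 per kilobase was 0.979, 0.934 and 0.895 in RA GFP-, 1.48, 1.44 and 1.48 in RA GFP+ and 1.76, 1.38 and 1.55 in SAG GFP+ libraries. RA GFP- lay below both GFP+ groups, which overlapped. With the length of the longest transcript the ratios were 1.08, 1.03 and 0.984 in RA GFP-, so which of the 2 genes was higher there depends on the length, while the order of the groups does not. Col4a5 made up 13.1, 13 and 24.1% of the collagen IV transcripts in RA GFP-, 1.36, 1.05 and 3.17% in RA GFP+ and 12, 17 and 14.4% in SAG GFP+ libraries. The ratio of Nid1 to Nid2 was 0.0997 ± 0.013 in RA GFP-, 0.0811 ± 0.00946 in RA GFP+ and 0.26 ± 0.0606 in SAG GFP+ (SD, n = 3).

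**Figure D4:**
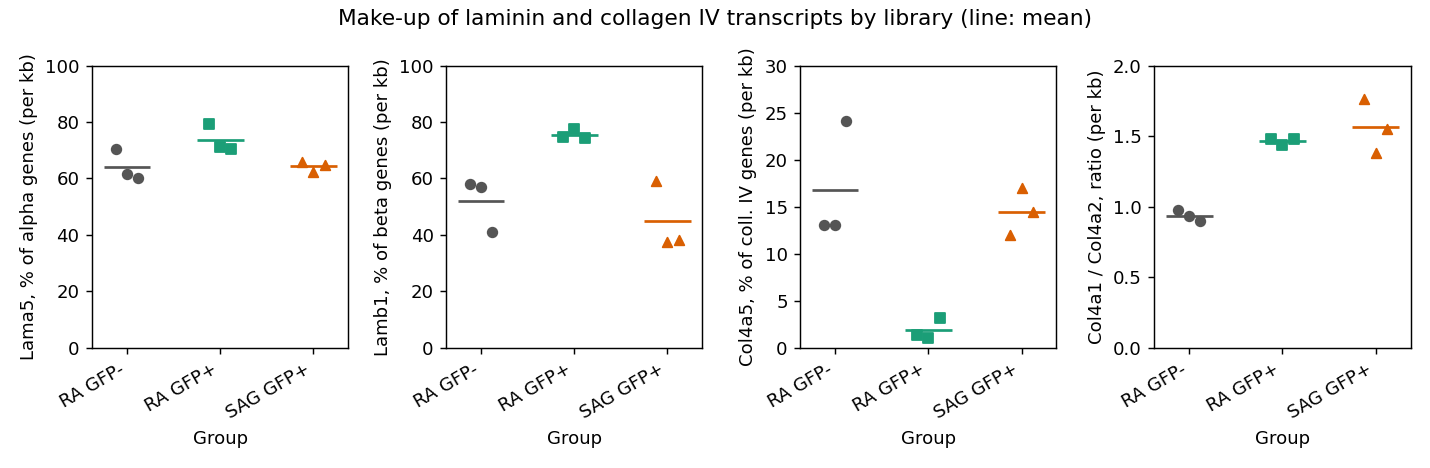
Shares and ratios of CPM per kilobase by library, with the group mean as a line: Lama5 among alpha chains, Lamb1 among beta chains, Col4a5 among collagen IV chains and Col4a1 to Col4a2. RA GFP+ libraries have the highest Lamb1 shares (74.2 to 77.5%) and the lowest Col4a5 shares (1.05 to 3.17%).

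Genes around the basement membrane were taken from further lists. Their counts are set beside the shares of all tested genes, which were 8.49% higher and 8.43% lower with the sort and 9.78% higher and 14.8% lower between the GFP+ groups. Of 16 tested further matrix genes (20 listed), 7 rose with the sort, and 2 were higher and 5 lower in SAG GFP+ than in RA GFP+. Ntn1, the floor plate netrin, stood at 145, 170 and 194 CPM in RA GFP-, at 390, 454 and 646 CPM in RA GFP+ and at 355, 498 and 442 CPM in SAG GFP+ libraries (1.55 with the sort, SE 0.20, adjusted p = 0.000344). The 2 GFP+ groups of Ntn1 overlapped. Vtn (vitronectin) rose by 5.48 with the sort (SE 0.48, adjusted p = 3.1e-05) and fell between the GFP+ groups (-1.22, SE 0.37, adjusted p = 0.0335), a call that ended when RA GFP+ replicate 1, 2 or 3 or SAG GFP+ replicate 1 or 3 was left out (adjusted p = 0.0617 to 0.12). Sparcl1, a relative of Sparc, was at 2.29 to 4.34 CPM in the RA libraries and at 62.7, 154 and 180 CPM in SAG GFP+ (5.18 against RA GFP+, SE 0.40, adjusted p = 7.39e-06).

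Of 21 matrix receptors, 12 rose and 5 fell with the sort, and 3 were higher and 13 lower under SAG than in RA GFP+ (all tested genes: 8.49% and 8.43%, then 9.78% and 14.8%). Itga8, the nephronectin receptor, stood at 9.5, 9.94 and 4.87 CPM in RA GFP-, at 74.6, 75.4 and 41.4 CPM in RA GFP+ and at 2.57, 2.62 and 2.3 CPM in SAG GFP+ libraries (2.98 with the sort, SE 0.30, adjusted p = 7.17e-05, and -4.67 between the GFP+ groups, SE 0.33, adjusted p = 4.22e-06). Itga8 and its ligand gene Npnt thus had their highest values in the same 3 libraries, as did most basement membrane genes that rose with the sort. Among these libraries Npnt was highest in replicate 3, where Itga8 was lowest. Itga3, a laminin receptor chain, stood at 106 to 137 CPM in RA GFP-, 186 to 265 CPM in RA GFP+ and 12 to 17.5 CPM in SAG GFP+ libraries (-3.99 between the GFP+ groups, SE 0.20, adjusted p = 5.61e-07). The 3 receptors higher under SAG were Itga6 (0.93, SE 0.16, adjusted p = 0.00152), Itgb8 (1.44, SE 0.33, adjusted p = 0.00804) and Ddr1 (0.93, SE 0.14, adjusted p = 0.000618). Itgb1, the shared beta chain, rose by 0.88 with the sort (SE 0.10, adjusted p = 0.000193), and its -0.32 under SAG (SE 0.10, adjusted p = 0.0382) ended when any 1 of the 6 GFP+ libraries or RA GFP- replicate 2 was left out (adjusted p = 0.0547 to 0.118).

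Of 12 genes for enzymes that build the laminin-binding sugar chain of dystroglycan, 2 rose with the sort (8.49% of all tested genes). Between the GFP+ groups 2 were lower under SAG (14.8% of all). In each of these comparisons 10 were not called. Of the 12, Pomgnt1 stood at 48, 49 and 49.2 CPM in RA GFP-, at 66.8, 63.2 and 58.8 CPM in RA GFP+ and at 49.8, 41.6 and 36.3 CPM in SAG GFP+ libraries. It was lower under SAG than in RA GFP+ (-0.56, SE 0.13, adjusted p = 0.0102). With the sort it missed the threshold (0.37, SE 0.13, adjusted p = 0.0873), and it passed with the replicate block in the 6 RA libraries (0.36, adjusted p = 0.0167) and with SAG GFP+ replicate 1 left out (0.37, adjusted p = 0.0422).

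Of 21 tested genes of collagen folding and crosslinking (22 listed), 8 rose with the sort (8.49% of all tested genes), and 1 was higher and 7 lower under SAG than in RA GFP+ (9.78% and 14.8% of all). Pxdn, the peroxidase that crosslinks collagen IV, stood at 138, 191 and 213 CPM in RA GFP-, at 464, 455 and 468 CPM in RA GFP+ and at 405, 446 and 465 CPM in SAG GFP+ libraries. Its 2 GFP+ groups overlapped (1.35 with the sort, SE 0.15, adjusted p = 0.000135, and -0.08 between the GFP+ groups, SE 0.15, adjusted p = 0.744). Plod1, a collagen lysyl hydroxylase, rose by 0.98 (SE 0.14, adjusted p = 0.000755) and was -0.82 under SAG (SE 0.14, adjusted p = 0.00142). Crtap, a part of the prolyl 3-hydroxylase complex, was lower under SAG (-1.14, SE 0.20, adjusted p = 0.00163).

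Of 22 matrix proteases and inhibitors, 11 rose and 1 fell with the sort, and 4 were higher and 9 lower under SAG than in RA GFP+, against 8.49% and 8.43%, and 9.78% and 14.8%, of all tested genes. Mmp14, a membrane-bound collagenase, stood at 30.3, 20.2 and 25.2 CPM in RA GFP-, at 144, 113 and 93.1 CPM in RA GFP+ and at 45.4, 66.3 and 62.2 CPM in SAG GFP+ libraries (2.21 with the sort, SE 0.21, adjusted p = 5.52e-05). The plasminogen activator gene Plat rose by 1.65 (SE 0.16, adjusted p = 5.88e-05). Adamts9, an extracellular protease, was lower under SAG than in RA GFP+ (-2.22, SE 0.23, adjusted p = 5.55e-05). Timp4, an inhibitor of metalloproteases, was at 0.0381 to 0.918 CPM in the RA libraries and at 45.1, 52.9 and 43.3 CPM in SAG GFP+ (7.91 against RA GFP+, SE 0.65, adjusted p = 1.18e-05).

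Most markers of endoderm and mesenchyme moved with the basement membrane genes, while most of neural progenitors, neurons and pluripotent cells fell with the sort, as given below. Of 9 tested markers of primitive, parietal and visceral endoderm (11 listed), tissues known for making basement membrane, 7 rose with the sort and 6 fell between the GFP+ groups, while 8.49% of all tested genes rose and 14.8% fell. Their summed level was 21.5 to 27.8 CPM in RA GFP-, 125 to 154 CPM in RA GFP+ and 38.1 to 84 CPM in SAG GFP+ libraries. Afp and Ttr were at 0 in RA GFP-, and Afp and Apoa1 at 0 in SAG GFP+. These genes were low in RA GFP+ too, with means of 1.08 (Afp), 0.46 (Ttr) and 0.0373 CPM (Apoa1, at 0.0734 CPM in RA GFP-). Amn had means of 2 CPM in RA GFP- and 0.924 CPM in RA GFP+, a difference that was not called. Dab2, which many other cells also express, made up most of the sum in SAG GFP+ (29.5, 61.4 and 77 CPM), and without it the sums were 7.88 to 9.43, 70.2 to 81.6 and 4.38 to 8.64 CPM. The largest part of the RA GFP+ sum without Dab2 was Sox17 (34.6, 49 and 55.3 CPM). Between SAG GFP+ and RA GFP-, 1 of the 9 was higher and 3 were lower (12% and 16.5% of all tested genes). Of 14 mesenchyme markers, 9 rose and 1 fell with the sort and 8 fell between the GFP+ groups (all tested genes: 8.49% and 8.43%, then 14.8%), with sums of 28.1 to 31.1, 103 to 106 and 40.9 to 63.2 CPM and Osr1 at 0 in SAG GFP+. Both sums were highest in RA GFP+, and their part in the results was not tested.

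Of the other lists, floor plate markers summed to 94.7 to 118 CPM in RA GFP-, 736 to 887 CPM in RA GFP+ and 976 to 1293 CPM in SAG GFP+ libraries. Against RA GFP+, 2 of 6 tested floor plate markers were higher in SAG GFP+ and 2 were lower (9.78% and 14.8% of all tested genes), the lower ones being Foxa1 (-2.35, SE 0.30, adjusted p = 0.000215) and Shh (-1.46, SE 0.36, adjusted p = 0.0128). The higher ones, Foxa2 (0.65, adjusted p = 0.0497) and Sulf1 (0.66, adjusted p = 0.0193), lost their calls when any 1 of several libraries was left out: Foxa2 with RA GFP- replicate 3, RA GFP+ replicate 1, 2 or 3 or SAG GFP+ replicate 1 or 2 (adjusted p = 0.0519 to 0.147), and Sulf1 with replicate 2 or 3 of either GFP+ group (adjusted p = 0.0623 to 0.0765). These 4 genes were named after their values were seen. For the remaining lists the values follow in the same order of groups. The sums were 1139 to 1304, 493 to 748 and 1241 to 1362 CPM for neural progenitor markers, and 285 to 408, 75.7 to 86.6 and 346 to 566 CPM for neuron markers. Pluripotency markers were at 580 to 951, 29.2 to 39.5 and 56.9 to 220 CPM, and surface ectoderm and simple epithelium markers at 275 to 365, 279 to 399 and 71.7 to 225 CPM. Endothelium markers were at 48.4 to 73.7, 13.2 to 19.7 and 1.84 to 2.32 CPM with Cdh5 and Emcn at 0 in SAG GFP+, neural crest and glia markers at 41.6 to 50.9, 24.9 to 29.4 and 14.5 to 14.7 CPM, and notochord markers at 5.33 to 6.74, 15.2 to 29.3 and 14.2 to 124 CPM with Noto at 0 in both RA groups. The endothelium sum in RA GFP- was mostly Pecam1 (59.5, 40.7 and 68.4 CPM), a gene that embryonic stem cells also express. Without Pecam1 the endothelium sums were 5.29 to 7.66, 8.2 to 13 and 1.31 to 1.71 CPM. With the sort, 5 of 6 neural progenitor, 6 of 6 neuron and 5 of 5 pluripotency markers fell and 0 rose (8.43% and 8.49% of all tested genes). Between the GFP+ groups, 5 neural progenitor, 5 neuron and 3 pluripotency markers were higher under SAG (9.78% of all). There 1, 0 and 2 of them were lower (14.8% of all). The part of these lists in the results was not tested.

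**Figure D5:**
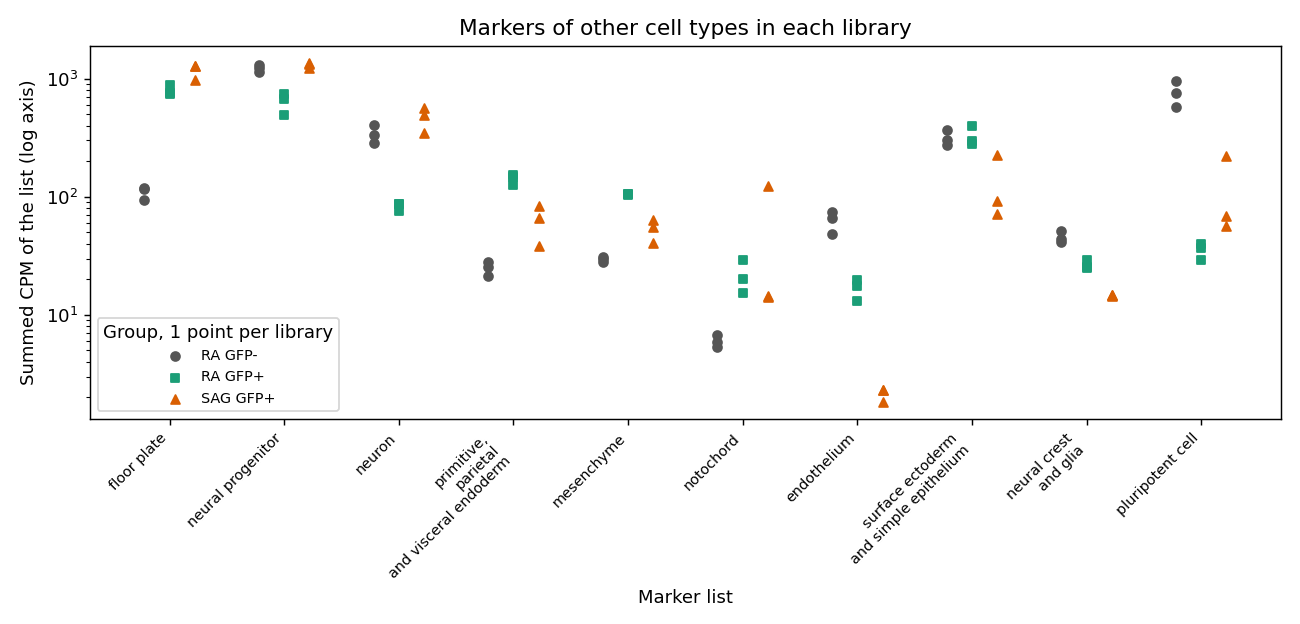
Summed CPM of each marker list on a log axis, 1 point per library. Endoderm and mesenchyme sums are highest in RA GFP+ libraries (125 to 154 and 103 to 106 CPM), floor plate sums are high in both GFP+ groups, and 1 SAG GFP+ library has a notochord sum of 124 CPM.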

How the data were processed

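Poly(A) RNA of 9 sorted libraries was sequenced with a directional kit, per the labels' protocols. The authors' deposited table holds raw counts per Ensembl gene ID. The submitters' processing notes name GRCm38, Subread 1.6.2 (featureCounts), Bowtie2 2.3.4.1 and Trim Galore 0.5.0. Not given in the sources used here are the strand setting, the annotation release and how reads with several matches were handled. Bowtie2 does not split reads, so on a genome it can lose those that cross exon junctions, and what this did to the counts was not tested. Symbols, coordinates and exon lengths came from GENCODE M21 (GRCm38).

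The counts were tested with edgeR 4.0.16 in R 4.3.3, with TMM scaling (factors 0.972 to 1.028) and filterByExpr (minimum count 10). Group means over all 9 libraries were fitted, with the quasi-likelihood test and Benjamini-Hochberg adjustment over 16772 genes. The code was also run on simulated counts with independent libraries, which cannot show how the test treats paired ones. The SE is the log2 fold change divided by the square root of F. The biological coefficient of variation was 0.226. Members, gene lists and tests were chosen with earlier results of these data known. Members were given per library where called with an absolute log2 fold change of at least 1 or at a mean of 100 CPM or more, and from each other list up to 2 called genes per comparison with the smallest adjusted p, some of which are not reported here. Lamb2, Nid1, Lamc3, Col4a5, Itga6, Itgb8 and Ddr1 are given otherwise, by range or after their values were seen. P-values measure the spread between replicates that the labels call biological.

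Deviations from group means correlated between same-numbered RA libraries with r = 0.273, 0.307 and 0.347 (over genes, which are not independent). RA GFP- and RA GFP+ libraries of a number thus look paired, but the labels do not say that a number marks a shared batch. The main fit did not use this pairing. Results of the sort that do use it are those given with the replicate block. For SAG GFP+ the same-number correlations were lower and mixed, with RA GFP+ (r = 0.111, -0.082 and 0.182) and with RA GFP- (r = 0.175, -0.022 and 0.242). Libraries of different number reached r = 0.152 with RA GFP+ and 0.139 with RA GFP-. Whether a number pairs these libraries cannot be told from these values. Alternatives were RLE scaling, DESeq2 1.42.0, no or a stricter filter (1 CPM in 3 libraries), the 6 compared libraries alone, the replicate block, and each library left out.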

Additional observations from a re-analysis of the deposited data

How the results depend on the processing

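With the sort under RA, 2838 of all tested genes were called, and 1783 to 3368 with 1 library left out (1783 without RA GFP+ replicate 2). The replicate block gave 3811 calls in all 9 libraries. In the 6 RA libraries alone, 3010 genes were called without the block and 5240 with it. The cause was not tested. Of the 28 tested basement membrane genes, 18 were called with the sort (16 to 19 with 1 library left out, 22 with the replicate block in 6 libraries), 20 between the GFP+ groups (18 to 22, and 22 with the block) and 10 between SAG GFP+ and RA GFP- (8 to 12, and 10 with the block). Over the same 3 comparisons in that order, no low-count filter gave 19, 23 and 15 member calls. DESeq2 gave 19, 22 and 13, and the block in all 9 libraries gave 19, 20 and 12. Without that filter and in DESeq2, the 6 genes untested in the main fit could also enter. The block in the 6 RA libraries added the calls of Lama1, Lama2, Col4a5 and Sparc given above. Between the GFP+ groups, same-numbered libraries correlated less, and not for every number. There all-gene calls went from 4096 to 4552 with the block in the 6 compared libraries. In all 9 libraries they went from 4117 to 5368. Between SAG GFP+ and RA GFP- the calls went from 3806 to 4716 in the 6 compared libraries and from 4787 to 6178 in all 9. The order of laminin and collagen IV genes per kilobase kept 26 of 48 places with longest-transcript lengths. Over 1339 member values under alternatives, 1236 kept direction and side of the threshold, 35 changed sign while called under neither setting, 34 lost a call, 34 gained one and 0 called values changed sign. Chosen after seeing the data were the shares and ratios with longest-transcript lengths and the marker sums without their most counted gene. Fewer than 100 counts in 1 or more groups limit the precision of Lama2, Lama3, Lama4, Lamc3, Smoc2, Tinagl1 and the 6 untested genes.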
